A study of Mus musculus with 32 samples.

Results

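The 3073 regions described here were accessible in the 3 E12.5 PL libraries and much less so elsewhere in a developmental series of blood stem and progenitor cells. They were chosen from the deposited region counts, divided by the column sums to CPM (counts per 1000000 counts), as autosomal regions with a mean of at least 5 CPM in E12.5 PL and at least 4 times the mean of each of the other 8 groups. They make up 3.17% of the 96960 autosomal regions, in a table of 99037 regions in all. A further 73 of the 2077 regions of chromosome X met the same CPM limits and were left out. Because the rule used these levels, the difference between E12.5 PL and the other groups is a description and was not tested.

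ATAC-seq uses the Tn5 transposase to insert sequencing adapters into accessible chromatin. All libraries were labelled as LSK cells of C57BL/6 mice, which lack lineage markers, carry Sca-1 and Kit and include the blood stem cells, and no allele or transgene was named. There were 9 developmental groups. The embryonic ones were E12.5 PL, E12.5 FL and E16.5 FL, and the later ones were labelled Perinatal BM, 1w BM, 3w BM, 4w BM, 6w BM and 8w BM. Each had 3 libraries, but 3w BM had 2. FL commonly stands for fetal liver and BM for bone marrow, the labels did not spell out PL, and they gave no treatment for these 26 libraries. In a second experiment E12.5 FL cells spent 2 h in medium taken from E16.5 hepatocytes (co-SHI) or in basic medium (SHI), again with 3 libraries each. Whether replicate libraries stem from different animals was not given in the labels, so the p-values measure the spread between these samples alone, which may be technical. Total counts were 4498323 to 5066732 in E12.5 PL, 2845113 to 10167340 over all 26 developmental libraries, and 7512258 to 20092146 in the cultured ones.

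Distal accessible regions, or enhancers, differ more between cell types than promoters do, and clusters of them often lie around genes that a cell type uses heavily. Basement membranes are sheets of type IV collagen, laminins and other matrix proteins that endothelial, epithelial and muscle cells lay down beneath or around themselves. Adherent cells read the stiffness of that matrix through integrins and actin, and the coactivators Yap1 and Wwtr1, bound to TEAD factors, turn on genes such as Ccn1, Ccn2 and Ankrd1 in response. In a bulk library, a signal from fewer cells of a type cannot be told apart from a weaker signal per cell.

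Of the 3073 regions, 85 (2.77%) overlapped a RefSeq promoter window, 250 bases before to 50 after a gene's start in GRCm38.p6, against 27.3% of the 40219 other autosomal regions at 5 CPM or more in E12.5 PL and 12.9% of all autosomal regions. The 6 promoters below are those of genes that the results return to. Ccn1 and Ankrd1 are targets of YAP, Cald1 encodes the actin-binding protein caldesmon, Mrtfb an actin-regulated coactivator, and Lamb1 and Sparc are basement membrane and matrix genes. Each sequence runs 5′ to 3′ on the strand of its gene. Capitals mark the TEAD word GGAATG or its reverse complement CATTCC, and the AP-1 word TGANTCA.
Ccn1 promoter: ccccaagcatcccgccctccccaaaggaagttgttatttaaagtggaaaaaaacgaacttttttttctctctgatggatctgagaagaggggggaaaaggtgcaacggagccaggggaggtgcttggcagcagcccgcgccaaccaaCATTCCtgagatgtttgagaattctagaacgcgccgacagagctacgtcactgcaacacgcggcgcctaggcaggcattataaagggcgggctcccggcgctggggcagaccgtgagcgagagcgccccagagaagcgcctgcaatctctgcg
Ankrd1 promoter: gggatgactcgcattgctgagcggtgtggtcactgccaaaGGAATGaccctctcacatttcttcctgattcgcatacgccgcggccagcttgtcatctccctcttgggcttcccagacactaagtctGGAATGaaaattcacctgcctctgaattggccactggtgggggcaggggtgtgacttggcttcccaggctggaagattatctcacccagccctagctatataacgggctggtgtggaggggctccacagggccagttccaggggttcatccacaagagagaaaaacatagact
Cald1 promoter: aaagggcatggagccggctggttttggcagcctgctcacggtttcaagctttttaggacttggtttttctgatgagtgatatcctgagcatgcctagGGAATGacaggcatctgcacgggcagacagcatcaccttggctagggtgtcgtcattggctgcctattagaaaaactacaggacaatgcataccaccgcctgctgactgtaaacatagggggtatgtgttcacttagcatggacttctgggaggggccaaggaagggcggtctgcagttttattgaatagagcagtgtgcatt
Mrtfb promoter: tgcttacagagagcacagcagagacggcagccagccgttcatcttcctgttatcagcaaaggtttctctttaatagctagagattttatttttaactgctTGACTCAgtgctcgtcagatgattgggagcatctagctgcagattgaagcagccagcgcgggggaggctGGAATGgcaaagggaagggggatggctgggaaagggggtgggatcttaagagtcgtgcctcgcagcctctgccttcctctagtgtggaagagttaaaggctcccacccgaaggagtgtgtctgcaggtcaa
Lamb1 promoter: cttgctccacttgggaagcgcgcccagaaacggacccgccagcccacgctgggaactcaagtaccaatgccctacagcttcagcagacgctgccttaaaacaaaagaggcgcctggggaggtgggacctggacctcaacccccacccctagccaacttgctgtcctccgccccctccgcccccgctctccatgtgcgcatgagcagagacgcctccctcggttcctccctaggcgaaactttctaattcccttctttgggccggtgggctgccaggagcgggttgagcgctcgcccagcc
Sparc promoter: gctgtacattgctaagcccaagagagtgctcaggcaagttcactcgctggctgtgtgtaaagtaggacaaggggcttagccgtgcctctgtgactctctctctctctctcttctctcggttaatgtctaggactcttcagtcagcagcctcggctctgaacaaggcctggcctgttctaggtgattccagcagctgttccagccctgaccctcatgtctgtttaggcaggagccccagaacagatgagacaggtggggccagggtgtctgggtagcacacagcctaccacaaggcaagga
The Ccn1 window lies at chr3:145649936-145650235 on the minus strand and the Ankrd1 window at chr19:36119795-36120094 on the minus strand. The Cald1 window is chr6:34598254-34598553 (plus strand), the Mrtfb window chr16:13358171-13358470 (plus strand), the Lamb1 window chr12:31265043-31265342 (plus strand) and the Sparc window chr11:55420031-55420330 (minus strand). Ankrd1 held 2 TEAD words, Ccn1 and Cald1 held 1 each, Mrtfb held 1 TEAD and 1 AP-1 word, and Lamb1 and Sparc held neither.

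Over the 93 promoter windows that these regions overlapped, many of them of predicted genes, the TEAD word in either orientation stood in 39 (41.9%). The windows came from 85 regions and some overlap each other, so a site can be counted more than once. The TEAD word of Ccn1 is also counted for the predicted gene Gm17501 on the other strand. The TEAD word stood in 11.3% of the 13938 windows overlapped by other regions at 5 CPM or more in E12.5 PL, and in 14.6% of all 31396 autosomal windows. The AP-1 word stood in 18.3% of the 93 windows, against 5.04% of the other overlapped windows and 7.84% of all windows. For the GATA word AGATAA the shares were 16.1% of the 93, 5.55% of the other overlapped windows and 11.2% of all. The ETS word CCGGAA was less frequent in the 93 windows (9.68%) than in the other overlapped windows (27.2%) or in all windows (15.1%), and the KLF word CACCC was at 63.4%, 64.8% and 57.7% in the same order. Both strands were searched, and the ETS and TEAD words, and the TEAD and AP-1 words, can share bases. Median GC content was 52.3% in the 93 windows, 62% in the other overlapped windows and 53.0% in all windows, and the part of base composition in these shares was not tested. A matching word is a string of letters and not a measured binding site.

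The median level of the 3073 regions was 8.89, 15.2 and 9.89 CPM in E12.5 PL 1, 2 and 3, and 0.351 to 2.39 CPM in the 23 other libraries. These regions held 3.35% to 5.11% of all counts in E12.5 PL and 0.202% to 0.784% in the others. All 3 E12.5 PL libraries stood above all 23 others in 2917 regions (94.9%), and in 156 the ranges overlapped. The same held in 12.2% of all autosomal regions, a share from which nothing is read since the rule used these levels. The ratio of the E12.5 PL mean to the highest other group mean had a median of 5.2 (quartiles 4.5 and 6.42) and a maximum of 25, and 144 regions (4.69%) exceeded 10. Many regions lay near the limit, with 1358 (44.2%) at a ratio between 4 and 5.

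**Figure D1:**
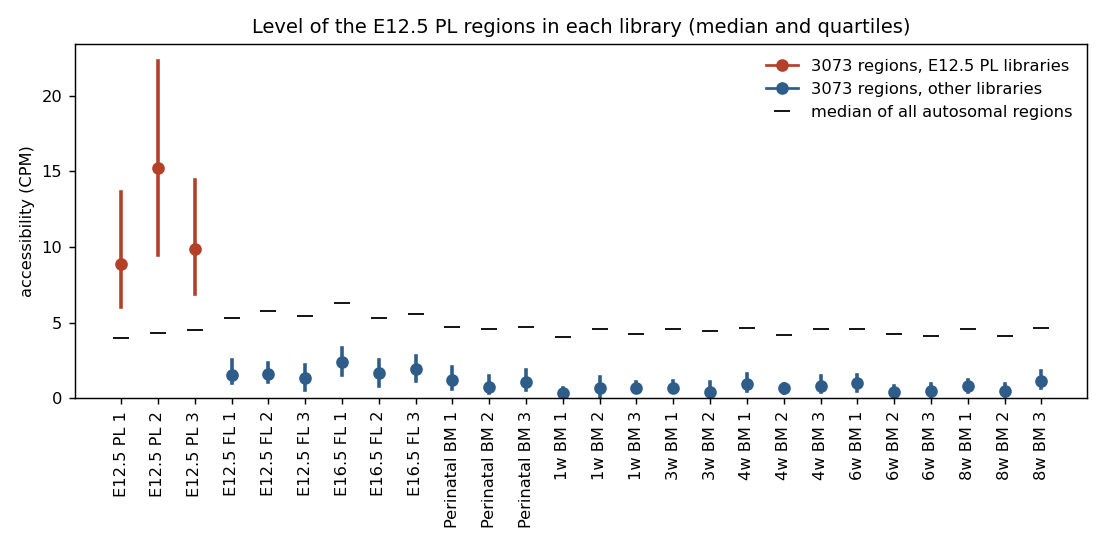
Level of the 3073 regions in each of the 26 developmental libraries, as the median (point) and quartiles (line) in CPM, with the median of all autosomal regions as a black tick. The E12.5 PL medians of 8.89, 15.2 and 9.89 CPM lie above their libraries' ticks, and the other 23 medians, at 2.39 CPM or less, lie below theirs.

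Among the other groups, the fetal liver libraries held the highest levels. E16.5 FL had the highest other mean in 2018 of the regions (65.7%), whereas it was the highest of these 8 groups in 32.2% of all autosomal regions. E12.5 FL was highest in 651 (21.2%), Perinatal BM in 251 (8.17%), and each later marrow group in 55 or fewer. Library medians averaged 1.48 ± 0.108 CPM in E12.5 FL libraries, 2.0 ± 0.364 CPM in those of E16.5 FL, 0.984 ± 0.23 CPM in Perinatal BM and 0.788 ± 0.325 CPM in 8w BM (SD, n = 3 each). The authors' peak lists were shortest in E16.5 FL 1, 2 and 3, with 9361, 16999 and 15178 peaks. Its median over all autosomal regions, 5.72 CPM, was the highest of the groups. The part of background signal in these levels, and in the comparisons of liver and marrow below, was not tested. The library 8w BM 3 carries the title 8w BM but a stage label of E12.5. Its median of 1.11 CPM was the highest of the libraries from 1w BM to 8w BM, with 0.794 and 0.46 CPM in 8w BM 1 and 2. It lay within the 0.731 to 1.18 CPM of the Perinatal BM libraries.

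The 3 E12.5 PL libraries did not share these regions evenly. E12.5 PL 2 was the highest of the 3 in 69.9% of the regions, against 38.5% of the other autosomal regions at 5 CPM or more in E12.5 PL. It stood at 2 times both others or more in 1083 regions (35.2%), against 5.45% of the other regions, and at 0.5 times both or less in 397 (12.9%), against 5.92%. Applied to each library alone, the CPM rule was met by 2208 regions with E12.5 PL 1, 5367 with E12.5 PL 2 and 2746 with E12.5 PL 3, and 813 of the 3073 (26.5%) met it with every library alone. Without E12.5 PL 2 the rule gave 2331 regions, of which 1790 (58.2% of the 3073) were shared.

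The authors called the deposited peak lists per library. For the developmental groups these are the libraries that the rule used, so the separation of groups in the lists is a description. It was not full. A peak in E12.5 PL 1, 2 and 3 overlapped 55.2%, 83.0% and 65.2% of the regions by at least 1 base, and 1132 (36.8%) had a peak in all 3 lists. In the 23 other developmental lists the share was 0 to 1.63%, while these lists overlapped 8.87% to 47.3% of all autosomal regions. Of the 3073 regions, 95 (3.09%) had a peak in at least 1 of the 23 other lists, so the regions are not all closed outside E12.5 PL. In 64 regions (2.08%) no E12.5 PL list had a peak. The authors' fold enrichment at the peaks had a median of 5.92, 7.55 and 5.9 in E12.5 PL 1, 2 and 3 at these regions, against 6.96, 6.9 and 6.64 at the other regions with a peak.

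**Figure D2:**
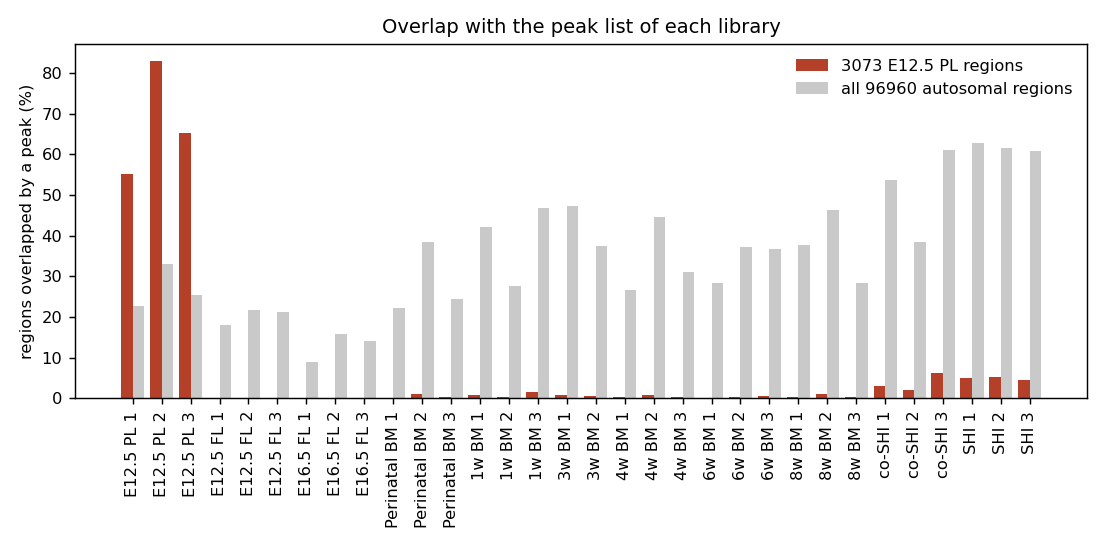
Share of regions overlapped by a peak of each of the 32 deposited lists, for the 3073 regions (red) and all 96960 autosomal regions (grey). The 3 E12.5 PL lists overlap 55.2% to 83.0% of the red set, no other developmental list more than 1.63%, and the cultured lists 1.95% to 6.31%.

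Few of the regions lay at gene ends. Genes were taken as the spans of protein-coding genes in GRCm38.p6 without predicted Gm and LOC genes, and their strand was not given. Of the regions, 91 (2.96%, 95% Wilson interval 2.42 to 3.62) lay less than 1 kb from the nearest end of a span. The share was 35.1% among the other regions at 5 CPM or more in E12.5 PL and 18.1% among all autosomal regions. Gene bodies held 52.1% of the regions (36.7% of the other regions), 26.4% were intergenic within 50 kb of a gene (20.2%), and 18.6% had no gene within 50 kb (7.99%). Exons and introns were not separated. Their median distance to a gene end was 23160 bp, against 4048 bp for the other regions and 10872 bp for all autosomal regions. The regions were also narrow: 91.9% had the table's minimum width of 501 bp, against 23.5% of the other regions. How peaks were merged into regions was not given, and 96.9% of the set had no peak in the 23 other lists. Nothing is therefore read from the width. The Wilson intervals cover counting error only.

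**Figure D3:**
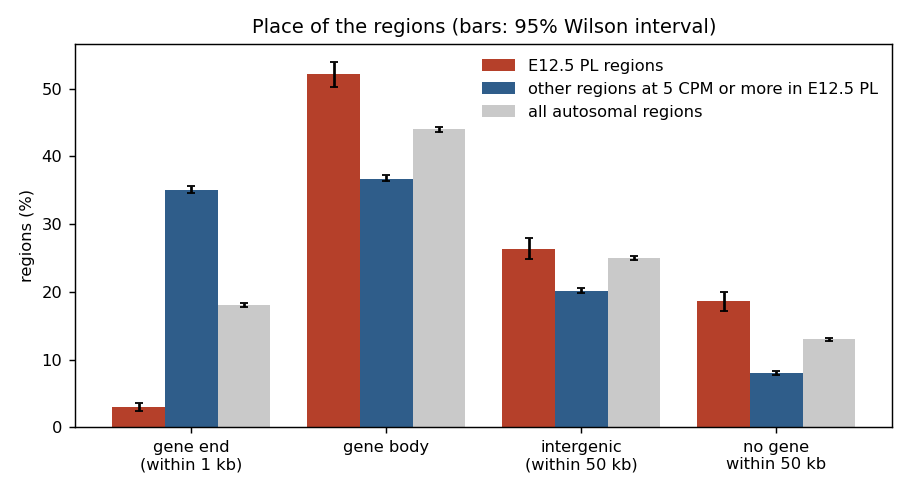
Share of regions by place (gene end, gene body, intergenic, or no gene within 50 kb) for the 3073 regions, the other regions at 5 CPM or more in E12.5 PL and all autosomal regions, with 95% Wilson intervals. Gene ends hold 2.96% of the first set and 35.1% of the second.

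By nearest gene, 1671 genes of the 16328 with an autosomal region (10.2%) had at least 1 of these regions, 480 had 2 or more and 43 had 5 or more. The nearest gene is a position and not a measured target. Fndc3b, which encodes a fibronectin type III domain protein, had the most, with 12 of its 41 regions. Arid5b, a DNA-binding protein gene, had 9 of 35, and Lamb1, the laminin beta 1 chain, 9 of 17. Creb3l2, a transcription factor of the secretory pathway, had 8 of 26, and Ddah1, which breaks down an inhibitor of nitric oxide synthesis, 8 of 21. Genes with 7 included the scaffold gene Bcar3, the caldesmon gene Cald1, the collagen gene Col4a2, the tumour suppressor gene Dlc1, the LIM protein gene Fhl2 and the laminin gene Lamc1. The hairpins of 2 miRNAs, Mir7243 in Ephb1 and Mir7680 in Ephb3, lay within regions of the set.

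Several stretches of the genome held many of the regions. Of the 3073, 1385 (45.1%) lay within 50 kb of another, and 39 groups with gaps under 50 kb held 5 or more. The divergent pair Col4a1 and Col4a2, the chains of the commonest type IV collagen, held 13 within 145 kb of chromosome 8 (11255480 to 11400702), among 33 regions of any kind in that span. Ccn1 and Ddah1 held 13 within 246 kb of chromosome 3 (145640603 to 145886567), among 29. Around Lamb1, 9 of 11 regions in 50.3 kb of chromosome 12 (31221502 to 31271834) were of this set. Per chromosome the share of regions ran from 1.95% on chromosome 11 to 4.37% on chromosome 18, around the 3.17% over all autosomes.

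The regions named by level, by ratio, by gene count or by list had a further condition. All 3 E12.5 PL libraries had to stand above all 23 others, so nothing is read from that separation. The regions with the highest levels in E12.5 PL were often ones with some signal in every library. The highest lay 3317 bp from Npr1, a natriuretic peptide receptor gene, with 83.4, 49.7 and 94.4 CPM in E12.5 PL 1, 2 and 3, against 12 to 20.4 CPM (median 16) in the 23 others. It had a peak in all 3 E12.5 PL lists and in 19 of the 23 others. The region at the end of Ptpn14, a phosphatase that restrains YAP, held 83.8, 61.4 and 61.1 CPM in E12.5 PL, against 9.3 to 22.1 CPM (median 13.6), with peaks in 20 of the 23 others. No library outside E12.5 PL reached the lowest E12.5 PL value at either place, although both were accessible there.

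Other regions of high level were near the floor outside E12.5 PL. A region 1676 bp from Cttnbp2nl held 58.9, 35.7 and 57.2 CPM in E12.5 PL 1, 2 and 3, against 0 to 6.58 CPM (median 1.78) in the 23 others. One inside Sptbn1, which encodes the membrane skeleton protein beta-II spectrin, held 52.5, 44.4 and 51.8 CPM, against 0 to 5.69 CPM (median 1.39). Neither had a peak outside the 3 E12.5 PL lists, the 6 cultured lists included, and the 3 E12.5 PL libraries lay far above all others.

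By ratio, the highest region lay inside Arid5b at chr10:68212182-68212682. It held 20.5, 18.6 and 17.6 CPM in E12.5 PL 1, 2 and 3 and 0 to 1.63 CPM (median 0.484) in the 23 others, a mean 25 times that of E16.5 FL, the highest other group. In most of the next regions that have a gene E12.5 PL 2 was the highest library. Inside Sema6d, a semaphorin gene, the levels were 13.3, 34.5 and 12 CPM, against 0 to 1.8 CPM (ratio 19.2). Inside Fhl2 they were 13.6, 30.2 and 9.46 CPM, against 0 to 2.11 CPM (ratio 18.9). Of the 12 regions with the largest ratios, taking 1 per gene and leaving out predicted genes and regions with no gene, Arid5b was the one whose 3 libraries lay closest together, and inside P3h2, which hydroxylates prolines of basement membrane collagen, the mean was 29.8 ± 18.9 CPM (SD, n = 3). The 4 regions without a named protein-coding gene within 50 kb that stood among them had ratios of 15.9 to 24.8. In 1 of them, at 28.9, 5.53 and 30.3 CPM in E12.5 PL 1, 2 and 3, E12.5 PL 2 was the lowest. That region overlapped a promoter window of the predicted gene Gm13816. All 12 had a peak in the 3 E12.5 PL lists and none in the 23 others or the 6 cultured lists.

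**Figure D4:**
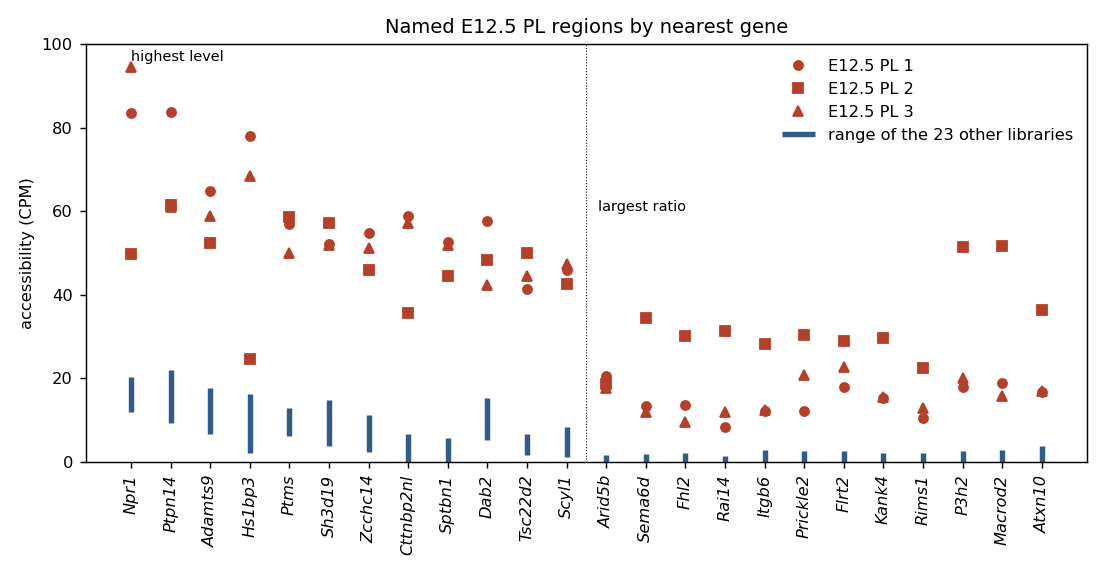
Levels in CPM of the 12 regions of highest E12.5 PL level (left of the dotted line) and the 12 of largest ratio (right), by nearest gene, with 1 region per gene and without predicted genes or regions that have no gene. Red symbols are E12.5 PL 1, 2 and 3 and blue bars the range of the 23 other libraries. The red symbols exceed the bars at every region drawn because only such regions were named.

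The 18 gene lists compared below hold 401 genes found in the annotation and were made with earlier results of these data known, so each share is read beside 3.17% of regions and 10.2% of genes and is not a test. The list of basement membrane and matrix genes had the largest share of regions: 11 of its 21 genes with a region, and 49 of its 258 regions (19%). These 49 summed to 708, 796 and 729 CPM in E12.5 PL 1, 2 and 3, against 35.3 to 154 CPM (median 59.2) in the 23 others. Over all their regions, members of the set or not, Lamb1 held 155 ± 48.1 CPM in E12.5 PL and 21.6 ± 1.05 CPM in E12.5 FL, and Lamc1, the laminin gamma 1 chain, 267 ± 41.6 CPM and 104 ± 2.95 CPM (SD, n = 3 each). Col4a1 held 309 ± 34.5 CPM in E12.5 PL and 113 ± 5.17 CPM in E12.5 FL, and Sparc, a collagen-binding matrix protein, 177 ± 22.6 CPM and 49.4 ± 3.93 CPM.

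Single regions of this list differed in how the E12.5 PL libraries shared them. At the end of Adamts9, a secreted metalloprotease gene, the levels were 64.9, 52.3 and 58.9 CPM in E12.5 PL 1, 2 and 3, against 6.75 to 17.6 CPM (median 10.8) in the 23 others. Inside Sparc they were 44.9, 21.7 and 53.7 CPM, against 1.52 to 8.36 CPM (median 3.53). Inside Col4a1, at chr8:11279220-11280205, they were 36.7, 14.6 and 37.8 CPM, against 0.307 to 7.22 CPM (median 2.48). E12.5 PL 2 was the lowest of the 3 at each of these places and still above the 23 others. At the Lamb1 start, whose sequence is printed above, the levels were 21.1, 16.4 and 12 CPM, against 0 to 4.49 CPM (median 1.77). The Sparc promoter was the reverse of the region inside the gene, with 16, 28.6 and 13.8 CPM, against 0.92 to 6.09 CPM (median 2.61). Hspg2 (the proteoglycan perlecan), Itga1 and Itga5 (integrin subunits) and Timp2 and Timp3 (metalloprotease inhibitors) completed the list's genes with a region of the set.

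YAP and TEAD genes came next, with 12 of 23 genes and 30 of 213 regions (14.1%). The 30 regions summed to 470, 652 and 467 CPM in E12.5 PL 1, 2 and 3, against 39.7 to 93.4 CPM (median 57.4) in the 23 others. They included the coactivators themselves, Yap1 and Wwtr1, and the DNA-binding partner Tead1 with 5 regions. Inside Tead1 the highest region held 33.8, 22.3 and 29.9 CPM, against 1.93 to 7.5 CPM (median 3.16). Inside Wwtr1 the levels were 22.9, 5.33 and 14.8 CPM, against 0 to 2.77 CPM (median 0.59), and inside Yap1 3.33, 12 and 7.74 CPM, against 0 to 2.27 CPM (median 0.805). The E12.5 PL libraries lay above the 23 others at all 3 genes, from which nothing is read since the rule used these levels. E12.5 PL 2 was the lowest of the 3 libraries at Tead1 and Wwtr1 and the highest at Yap1.

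Among the targets, the region over the Ccn1 promoter printed above, chr3:145649600-145650220, held 38.9, 48.0 and 34.8 CPM in E12.5 PL 1, 2 and 3, against 3.31 to 9.57 CPM (median 5.76) in the 23 others. The Ankrd1 promoter held 6.89, 11.6 and 9.03 CPM, against 0 to 3.13 CPM (median 0.731). Inside Amotl2, which encodes an angiomotin that binds YAP, the levels were 35.3, 36.5 and 28.2 CPM, against 2.73 to 8.89 CPM (median 5.61). Ccn2, the other classical target, had a single region of the set, with 5.34, 8.29 and 4.94 CPM, against 0 to 1.48 CPM (median 0.484). The groups did not overlap at any of these 4 regions, from which nothing is read since the rule used these levels.

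Actin and focal adhesion genes had 13 of 25 genes and 43 of 440 regions (9.77%), which summed to 513, 855 and 560 CPM in E12.5 PL 1, 2 and 3, against 26.5 to 119 CPM (median 47.5) in the 23 others. At the Cald1 promoter, printed above, the levels were 32.7, 37.7 and 29.9 CPM, against 0 to 3.8 CPM (median 1.17). Inside Tpm4, a tropomyosin gene, they were 16.7, 37.7 and 17.2 CPM, against 0 to 2.44 CPM (median 0.613). Palld, which encodes the actin-bundling protein palladin, had 6 regions. Outside the lists, the Mrtfb promoter held 30.5, 28.4 and 32.5 CPM, against 0 to 6.28 CPM (median 1.48). Cald1 and Mrtfb were even across the 3 libraries, while the region inside Tpm4 was highest in E12.5 PL 2.

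**Figure D5:**
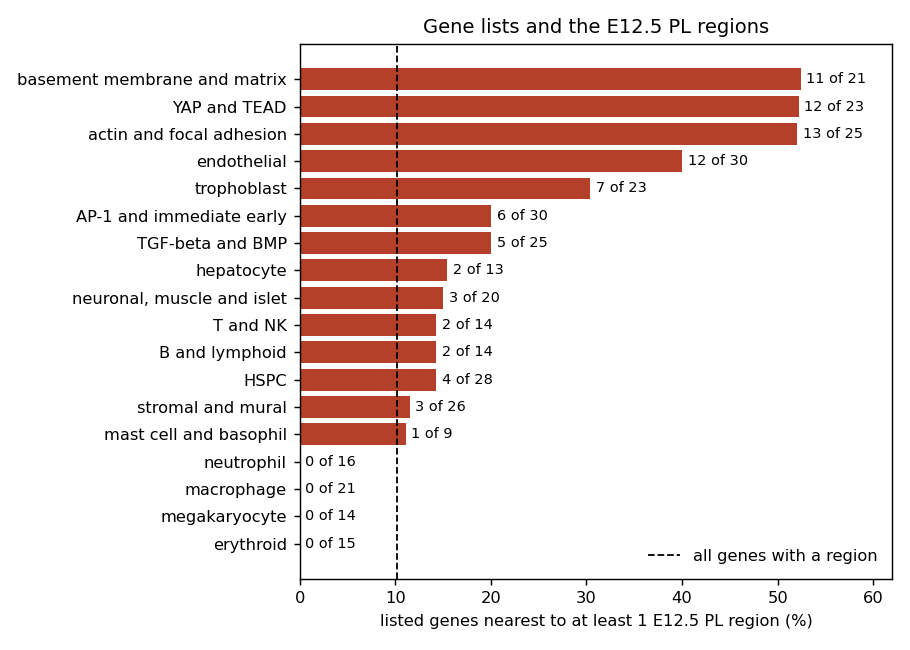
Share of the genes of each of 18 lists that were the nearest gene of at least 1 of the 3073 regions, with the count beside each bar and the 10.2% of all genes as a dashed line. Basement membrane, YAP and TEAD, and actin and focal adhesion genes are at 52.0% to 52.4%, and erythroid, megakaryocyte, macrophage and neutrophil genes at 0.

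Markers of other cell types than blood progenitors were part of the set, and their part in its levels was not tested. Endothelial genes had 12 of 30 genes and 20 of 230 regions (8.7%). A region inside Cdh5, the adhesion molecule VE-cadherin of endothelial junctions, held 31.1, 28.8 and 48.4 CPM in E12.5 PL 1, 2 and 3, against 0 to 3.32 CPM (median 0.702) in the 23 others. Inside Tek, the angiopoietin receptor Tie2, the levels were 35.1, 45.2 and 31.0 CPM, against 0 to 7.48 CPM (median 1.05). In a region near Kdr, a receptor of vascular endothelial growth factor, they were 22.5, 5.72 and 18.3 CPM, against 0 to 4.28 CPM (median 1.29). E12.5 PL 2 was at 0.5 times both other libraries or less in 7 of the 20 endothelial regions, and at 2 times both or more in 4.

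The endothelial list as a whole, with its regions outside the set, summed to 2155 to 2955 CPM in E12.5 PL and 1784 to 1795 CPM in E12.5 FL. Kdr summed to 139 ± 51.7 CPM in E12.5 PL and 64.2 ± 8.34 CPM in E12.5 FL, with no overlap (SD, n = 3 each). Cdh5 summed to 154 ± 32.6 CPM and 108 ± 9.12 CPM, and Pecam1 to 153 ± 53.7 CPM and 107 ± 27.1 CPM. The groups overlapped at both, with a lowest E12.5 PL value of 116 CPM and a highest E12.5 FL value of 117 CPM at Cdh5. The list's regions were accessible in the liver libraries as well. Sox17, a factor of arterial endothelium and fetal blood stem cells, had 3 regions of the set, and Eng, Emcn, Pecam1, Stab2, Flt1, Aplnr, Ephb4 and Prox1 had 1 or 2 each.

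The trophoblast list had 7 of 23 genes and 8 of 154 regions (5.19%). Inside Tead4, a TEAD factor of early trophoblast, the levels were 26.7, 26.6 and 31.8 CPM in E12.5 PL 1, 2 and 3, against 0 to 4.49 CPM (median 1.24) in the 23 others. Inside Wnt7b they were 17.6, 27.6 and 20.2 CPM, against 1.14 to 6.65 CPM (median 2.46). Near Cdh1 they were 13.8, 28.4 and 8.6 CPM, against 0 to 3.59 CPM (median 0.393). Near Elf5, a trophoblast stem cell factor, they were 7.34, 25.1 and 11.2 CPM, against 0 to 2.99 CPM (median 0.794). At the end of Krt8, a keratin gene of simple epithelia, they were 9.34, 20.3 and 12.7 CPM, against 0 to 5.43 CPM (median 1.4). E12.5 PL 2 was thus the highest at each of these places but Tead4. The 8 regions summed to 96, 175 and 104 CPM in E12.5 PL, against 4.14 to 24.2 CPM (median 10.8), and the whole list to 1339 to 1546 CPM in E12.5 PL and 1020 to 1067 CPM in E12.5 FL. Without E12.5 PL 2 the rule left 3 of the 23 genes, against 12 of 21 for basement membrane, 11 of 23 for YAP and TEAD, 14 of 25 for actin and 13 of 30 for endothelial genes. Among the list's genes with a region but none in the set were Cdx2, Eomes, Ascl2, Gcm1, Hand1, Krt7, Krt18 and Krt19. The placental hormone gene Prl3d1, Tpbpa and the fusion gene Synb had no region nearest to them among the autosomal regions.

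Stromal and mural genes had 3 of 26 genes and 3 of 133 regions (2.26%, below the 3.17% over all autosomal regions). These were regions at Foxf1, Cspg4 and Pdgfra. Foxf1, a mesodermal factor, held 55.6, 33.0 and 40.2 CPM in E12.5 PL 1, 2 and 3, against 1.2 to 11.7 CPM (median 6.61) in the 23 others, and the groups did not overlap. Pdgfrb, the receptor of pericytes, had none of its 11 regions in the set and summed to 54.1 ± 11.2 CPM in E12.5 PL and 72.3 ± 10.1 CPM in E12.5 FL (SD, n = 3 each). The stromal list as a whole summed to 915 to 994 CPM in E12.5 PL and 794 to 858 CPM in E12.5 FL.

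Signalling lists were closer to the background. TGF-beta and BMP genes had 5 of 25 genes and 8 of 266 regions (3.01%). Inside Smurf1, a ubiquitin ligase of SMAD proteins, the levels were 16, 31.8 and 26.7 CPM in E12.5 PL 1, 2 and 3, against 0 to 2.49 CPM (median 0.731) in the 23 others. AP-1 and immediate early genes had 6 of 30 genes and 12 of 264 regions (4.55%), 5 of them around Klf6. The highest of these, 23611 bp from Klf6, held 27.8, 43.6 and 34.0 CPM, against 0 to 9.32 CPM (median 2.89). Fos, Jun, Junb and Egr1 had none, and Atf3 had 1.

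Among blood genes, none of the 59 erythroid, 74 megakaryocyte, 96 macrophage or 60 neutrophil regions belonged to the set. A count of 0 allows shares of up to 5.08%, 4.05%, 3.12% and 5.0% in these lists, taking regions as independent, which neighbours need not be. These lists are therefore too short to set a 0 apart from the 3.17% over all autosomal regions. The list of stem and progenitor genes had 10 of 366 regions (2.73%), near that background, at Meis1, Mecom, Fli1 and Mllt3. The highest, inside Meis1, held 8.0, 18.0 and 9.24 CPM in E12.5 PL 1, 2 and 3, against 0 to 2.36 CPM (median 0.522) in the 23 others. Mecom, a regulator of stem cell self-renewal, had 5 regions of low level, with means of 5.16 to 7.08 CPM. Mast cell genes had 2 of 49 regions (4.08%), B cell genes 3 of 93 (3.23%) and T and NK genes 3 of 78 (3.85%), all near the background, at Mitf, Ebf1, Foxo1, Bcl11b and Gata3. Hepatocyte genes had 3 of 54 regions (5.56%, at Foxa2 and Ttr), and neuronal, muscle and islet genes 5 of 89 (5.62%, at Mbp, Syt1 and Tnnt3). Both shares were above the 5.19% of the trophoblast list.

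The genes that define the sorted phenotype had no region in the set. Kit summed to 145 ± 13.5 CPM over 16 regions in E12.5 PL and 88.7 ± 17.5 CPM in E12.5 FL, and Ly6a, which encodes Sca-1, to 4.38 ± 0.653 CPM and 2.07 ± 1.38 CPM at its only region (SD, n = 3 each). Ptprc, the pan-leukocyte antigen CD45, summed to 40.4 ± 4.38 CPM in E12.5 PL and 125 ± 12 CPM in E12.5 FL, and Mpo, a granule enzyme of myeloid progenitors, to 5.18 ± 0.844 CPM and 22.6 ± 3.02 CPM. The neutrophil list as a whole summed to 183 to 210 CPM in E12.5 PL and 486 to 488 CPM in E12.5 FL. Accessibility at Kit and Ly6a was thus higher in E12.5 PL than in E12.5 FL with no overlap, although the Ly6a mean lay under 5 CPM. At Ptprc and Mpo it was lower than in E12.5 FL, also with no overlap. These sums were not tested, and the cell type behind the set cannot be told apart in these bulk libraries.

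The rest of the regions nearest to the same genes were compared between E12.5 PL and E12.5 FL by the quasi-likelihood test of edgeR with Benjamini-Hochberg adjustment at 0.05. Over all regions, 26.4% were called higher and 23.1% lower in E12.5 PL. Of 18485 regions outside the set nearest to its 1671 genes, 5846 (31.6%) were called higher and 3446 (18.6%) lower, and of 63366 regions of other genes 22.9% and 24.1%. At gene ends of the set's genes 55.9% of 1940 regions were called higher and 7.53% lower, against 42.4% and 11.3% of 15473 for other genes. The median log2 fold change of the 18485 regions was 0.2, against -0.09 over all regions, and it was -0.09 against -0.38 with total counts in place of TMM scaling, where 46.5% of the calls were higher in place of 62.9%. With size factors of DESeq2 it was 0.41 against 0.12, and 72.6% of the calls were higher. The contrast is the one the rule used, so these counts describe the genes and support nothing further.

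By list, the shares of regions outside the set that were called ranged widely, and differences between lists were not tested. Of the basement membrane genes 99 of 209 were called higher and 17 lower, of YAP and TEAD genes 83 of 183 and 18, of actin genes 176 of 396 and 62, and of endothelial genes 87 of 210 and 23. Of AP-1 and immediate early genes 116 of 252 were called higher and 27 lower, and of TGF-beta and BMP genes 108 of 258 and 32. At gene ends 21 of 28 YAP and TEAD regions were called higher and none lower. The share called higher at gene ends was 55.9% for the set's genes and 42.4% for other genes. Actin genes had 26 of 33 higher there and 2 lower. AP-1 and immediate early genes had 44 of 60 and 2, and TGF-beta and BMP genes 27 of 42 and 0. Of stem and progenitor genes 56 of 356 were called higher and 120 lower, and of neutrophil genes 1 of 60 and 34. Between these lay stromal and mural genes, with 35 of 130 higher and 22 lower, hepatocyte genes, with 12 of 51 and 9, and neuronal, muscle and islet genes, with 16 of 84 and 17.

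Liver and marrow groups, which the rule limits alike, were compared in a fit over all 26 developmental libraries. All 3073 regions passed the count filter there, most of them through their counts in E12.5 PL, where they were chosen to be high. In a fit of 8w BM and E12.5 FL alone only 329 passed it, of which 55 were called, so the counts in the shared fit describe the regions and support nothing further. The share called over all regions in the fit of these groups alone is not given here, so nothing is read from the 55. For 8w BM over E12.5 FL, edgeR called 7 of the 3073 regions higher and 153 lower, 0.228% and 4.98%, against 10.7% and 5.7% of all 99005 regions tested. The share called lower was near that of all regions. An unadjusted p under 0.05 was reached by 465. The median log2 fold change was -0.7 over the 3073 regions and -0.05 over all regions. The regions held a median of 2 to 8 counts per library outside E12.5 PL, which limits what could be detected.

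In that comparison a region inside Ppp1r9b, which encodes the actin-binding protein spinophilin, had 0.397, 0 and 0.888 CPM in the 3 8w BM libraries and 5.54, 4.18 and 5.98 CPM in the 3 E12.5 FL libraries (log2 fold change -3.5, SE 0.59, adjusted p = 1.3e-05, edgeR). A region inside Cdc42ep1, an effector of the small GTPase Cdc42, averaged 0.362 ± 0.466 CPM in 8w BM and 3.51 ± 0.923 CPM in E12.5 FL (SD, n = 3 each, log2 fold change -3.16, edgeR adjusted p = 0.00045). The Col4a1 region named above averaged 0.795 ± 0.45 CPM in 8w BM and 4.7 ± 0.46 CPM in E12.5 FL (-2.4, edgeR adjusted p = 0.0011). In the other direction a region at the end of Ptms, the parathymosin gene, averaged 8.67 ± 3.42 CPM in 8w BM and 4.58 ± 1.7 CPM in E12.5 FL (1.09, edgeR adjusted p = 0.011). The 2 groups did not overlap in Ppp1r9b, Cdc42ep1 or Col4a1, while in Ptms the lowest 8w BM value, 5.76 CPM, lay under the highest E12.5 FL value, 6.05 CPM. In a fit of the 2 groups alone these 4 regions passed the filter and were called, with adjusted p of 0.00013 at Ppp1r9b, 0.0021 at Cdc42ep1, 0.0018 at Col4a1 and 0.034 at Ptms (edgeR). The Ptms call was lost without 8w BM 3 (adjusted p = 0.11, edgeR) and without E12.5 FL 3 (adjusted p = 0.1, edgeR). Without 8w BM 1, 8w BM 2 or E12.5 FL 2, 101, 56 and 101 regions were called in place of 160, and without 8w BM 3, whose stage label differs from its title, 236 were called.

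For Perinatal BM over E16.5 FL, 4 regions were called higher and 42 lower, 0.13% and 1.37% of the 3073, against 6.66% and 1.36% of all regions. The share called lower was that of all regions, and in a fit of these 2 groups alone 402 regions passed the filter and 9 were called. The share called over all regions in that fit is not given here, so nothing is read from the 9. The median log2 fold change was -0.6 over the 3073 regions and -0.04 over all regions, and 354 had an unadjusted p under 0.05. The Tek region described above had 0.295, 0.366 and 0.783 CPM in Perinatal BM 1, 2 and 3 and 7.48, 2.5 and 3.32 CPM in E16.5 FL 1, 2 and 3 (log2 fold change -2.94, SE 0.62, adjusted p = 0.0011, edgeR). A region inside Rbm20, an RNA-splicing factor gene of heart muscle, had 0 CPM in all 3 Perinatal BM libraries and 4.19, 1.11 and 2.22 CPM in E16.5 FL (edgeR adjusted p = 0.002). A Creb3l2 region averaged 8.93 ± 3.52 CPM in Perinatal BM and 4.36 ± 0.437 CPM in E16.5 FL (1.25, edgeR adjusted p = 0.021). In all 3 the groups did not overlap. In a fit of the 2 groups alone Tek and Rbm20 did not pass the filter, so their calls rest on a filter passed through E12.5 PL, while Creb3l2 passed it (adjusted p = 0.046, edgeR). The Creb3l2 call was lost without Perinatal BM 2 (log2 fold change 0.85, adjusted p = 0.28, edgeR), without E16.5 FL 1 (adjusted p = 0.099) or E16.5 FL 3 (adjusted p = 0.078, edgeR), and with total counts in place of TMM (adjusted p = 0.073, edgeR). Without Perinatal BM 2, E16.5 FL 1 or E16.5 FL 3, 12, 18 and 25 regions were called in place of 46, and E16.5 FL 1 held the highest value of the E16.5 FL libraries at Tek and Rbm20.

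The cultured libraries, which the rule did not use, had little of this signal. They hold E12.5 FL cells, a group that the rule limits, so low levels were largely set by the choice of regions. The other regions compared below carry no such limit, and the shares are a description. Their region table had a region overlapping 531 of the 3073 (17.3%, 95% Wilson interval 16 to 18.7), against 80.7% of the other regions at 5 CPM or more in E12.5 PL. In the overlapping regions the median was 2.03 to 2.09 CPM in co-SHI and 2.15 to 2.4 CPM in SHI, against 5.33 to 5.66 CPM over all matched autosomal regions. A level of 5 CPM or more in the mean of a cultured group was reached by 65 (12.2%). Of 526 regions tested for co-SHI over SHI, edgeR called 0 higher and 2 lower, 0% and 0.38%, against 0.228% and 0.332% (0.56% in either direction) of all 145129 regions, and 97 had an unadjusted p under 0.05.

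The 2 were a region inside Map2k6, a kinase of the p38 pathway, and one near Csgalnact1, a chondroitin sulfate enzyme gene. Map2k6 had 1.87, 2.29 and 2.1 CPM in co-SHI 1, 2 and 3 and 4.03, 6.79 and 4.89 CPM in SHI 1, 2 and 3 (log2 fold change -1.3, SE 0.27, adjusted p = 0.015, edgeR), with no overlap. Csgalnact1 had 2.36, 2.64 and 1.47 CPM in co-SHI and 2.23, 7.32 and 7.81 CPM in SHI (-1.38, SE 0.31, edgeR adjusted p = 0.03), and there the groups overlapped. The count moved with single libraries: it was 0 without SHI 2, co-SHI 1 or co-SHI 2, 9 without SHI 1 and 18 without co-SHI 3. With total counts in place of TMM it was 2 higher and 4 lower. Csgalnact1 was also lost without SHI 3 (adjusted p = 0.21, edgeR).

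Regions just inside and outside the limits differed little. At the level limit, a region near Gfpt1 at 5.003 CPM was inside and a region near Ddah1 at 4.984 CPM was outside. At the ratio limit a region near Socs3 had a ratio of 4.0 and was inside, and one near Igsf3 had 3.999 and was outside.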

How the data were processed

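Accessibility was measured by ATAC-seq in 32 libraries. The count tables deposited by the authors hold raw counts per region, with no scaling. The authors' deposited peak lists give a display score, a fold enrichment ratio and −log10 p and q per peak. Build mm10 (GRCm38) and the tools HOMER, DiffBind, deepTools, MACS2 and Trim Galore are credited to the submitters' processing notes. Not given in the sources used here were the aligner, peak settings, Tn5 shift, duplicate removal and region merging, which bear on the values. Per the labels' protocols, 10 PCR cycles were used.

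The chosen regions and lists were picked with earlier results of these data known. Counts were divided by column sums to CPM. Tests were two-sided, with edgeR 4.0.16 (R 4.3.3), quasi-likelihood (filterByExpr minimum count 10, TMM, Benjamini-Hochberg at 0.05), fitted over all 26 developmental or all 6 cultured libraries. Standard errors (SE) are of the log2 fold change. On simulated 4-fold changes it recovered 91.5% (8w BM over E12.5 FL) and 93.0% (co-SHI over SHI) of 200 regions. The changed regions had an expected count of at least 10 in the smallest library. The regions of the set held a median of 2 to 8 counts per developmental library outside E12.5 PL. The 91.5% is therefore not a measure for them. The cultured table has 3 further columns, named E12.5 FL, which were not used here. Groups came from the titles. Alternatives were DESeq2 1.42.0, other scalings, no filter, a replicate block, other limits and leaving out each library. Sequences are from RefSeq, GRCm38.p6. Regions were named by highest level, largest ratio, genes with most regions or up to 3 per list, 1 per gene, without predicted genes. In these, all 3 E12.5 PL libraries had to stand above all other developmental libraries. The 3 of smallest adjusted p per direction were also named, without that condition. Regions at named promoters, Yap1, Wwtr1, Tead1, Ccn2, Kdr, Elf5, Krt8 and P3h2 were chosen after their values were seen. Tables were joined in pandas 2.3.3 and figures drawn in matplotlib 3.10.9 under Python 3.11.15.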

Additional observations from a re-analysis of the deposited data

How the results depend on the processing

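How many regions the rule finds depends on its limits and on scaling. In place of 3073 there were 5020 with CPM scaled by TMM, 6982 with size factors of DESeq2, 5626 at 3 times, 968 at 6 times, 1904 at 10 CPM, and 230 when the lowest E12.5 PL library had to be at least 4 times the highest other library. Leaving out libraries gave 2331 to 3811, and E12.5 PL 2 alone, an alternative chosen after seeing the data, gave 5367. Regions of basement membrane genes made up a larger share than the regions as a whole under each of these rules (1.94% against 0.237% under the strictest). The share at gene ends was 5.3% within 2 kb and 1.85% within 500 bp, with 22.0% and 15.2% of all autosomal regions. With peaks covering 50% of a region, the median share with a peak was 44.2% in E12.5 PL, 0% in E12.5 FL and 2.02% in SHI, and it was 4.07% in SHI with a −log10 q of at least 5. The cultured table matched 14.4% at an overlap of 50% of each region.

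Calls among the 3073 rest on few counts. With the compared groups fitted alone, 55 were called for 8w BM over E12.5 FL and 9 for Perinatal BM over E16.5 FL, in place of 160 and 46, where 329 and 402 passed the filter. Leaving out each library gave 56 to 236, 12 to 56 and, for co-SHI over SHI, 0 to 18 calls in place of 2. Total counts without TMM gave 6 calls for co-SHI over SHI. For regions outside the set nearest to its genes, leaving out each library gave 4216 to 5108 called higher in E12.5 PL in place of 5846. Shares over all regions under these alternatives are not given here, so the counts show only how the calls moved.

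Libraries with the same number did not deviate together (r from -0.036 to 0.057), and 0 of 6, 2 of 6, 2 of 6 and 4 of 6 libraries correlated best with their own number for 8w BM over E12.5 FL, Perinatal BM over E16.5 FL, E12.5 PL over E12.5 FL and co-SHI over SHI. With the replicate number as a block, these comparisons gave 164, 51, 5745 and 4 in place of 160, 46, 5846 and 2. For the regions named singly, 455 values under the alternatives were counted as unchanged. For tested regions, 33 values no longer passed the threshold, and no value reversed. The 455 pool tested calls with untested log2 ratios of E12.5 PL to the highest other group, which the rule made high. They therefore do not measure how stable the tested calls are. Fits in which a region did not pass the filter were not counted, and the cause was not tested.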
